A study of Homo sapiens with 6 samples.

Results

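Cation-chloride cotransporters carry chloride across cell membranes together with sodium or potassium. SLC12A2 encodes NKCC1, which brings sodium, potassium and chloride into the cell. SLC12A4 and SLC12A7 encode the potassium-chloride cotransporters KCC1 and KCC4, which let potassium and chloride out. The kinase WNK1 senses chloride and phosphorylates SPAK (encoded by STK39) and OSR1 (encoded by OXSR1), and these in turn phosphorylate the cotransporters, which activates NKCC1 and inhibits the KCCs. Cells use this system to set their volume and internal chloride, and in secretory epithelia NKCC1 on the basolateral side supplies the chloride that leaves through apical channels.

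The 7 transcripts described here are those of SLC12A2, SLC12A4, SLC12A7, SLC12A9, WNK1, STK39 and OXSR1, out of 60835 gene symbols in the deposited tables. They were chosen by name, by known role, at a time when earlier results of the same comparison were known, so their measured differences between the groups are given as a description and not as tests. All 7 passed the filter on low counts.

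The cells were PANC-1, an established line of pancreatic epithelioid carcinoma, with SMAD4 knocked out and then transfected either with SMAD4 carrying R272K, an arginine replaced by a lysine, or with wild-type (WT) SMAD4. SMAD4 is the common partner of the receptor-activated SMADs downstream of TGF-β and BMP receptors, and the series concerns its arginine methylation by PRMT1. Each group had 3 libraries of polyadenylated RNA taken on day 3, and knockout cells without introduced SMAD4 were not analysed here. Libraries held between 14776148 and 17706201 counts. The labels do not say whether replicates came from separate cultures, so the spread between them, and any p-value that rests on it, may be technical.

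Several facts about the whole series bear on these values. SMAD4 itself stood at 40.6, 45.6 and 43.6 CPM (counts divided by the TMM-scaled library size, per 1000000) in the R272K libraries and at 83.4, 93.6 and 89.0 CPM in the WT libraries, so the substitution and the amount of SMAD4 transcript cannot be told apart. WT replicate 1 lay away from the rest, with a score of 32.8 on principal component 1 (31.8% of variance) where the other libraries scored between -16.3 and 10.3. In that library long transcripts were low relative to the other WT replicates (Spearman's rho of -0.41 between log2 ratio and length across genes, which are not independent replicates). The epithelial keratin transcripts KRT8, KRT18 and KRT19 were abundant in every library. KRT19, the lowest of these, averaged 299 TPM in R272K libraries and 315 TPM in WT libraries. KRT7 and EPCAM were low, with means of 7.36 and 9.73 TPM in R272K libraries and 7.81 and 7.33 TPM in WT libraries. Of 12 markers of acinar, endocrine, leukocyte and endothelial cells, 11 stayed at or below 0.431 TPM in every library, and CD14 was the exception at 3.89 to 6.51 TPM.

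The transcript that differed most, SLC12A2, is on chromosome 5 from 128083766 to 128189677 on the plus strand (GRCh38, as deposited). SLC12A7, the most abundant of the 7 and almost level between the groups, is on the same chromosome from 1050384 to 1112063 on the minus strand. The 250 bases before the start of each are shown because these genes had the largest and the smallest fold change of the 7, and because SMAD proteins bind short DNA motifs. The sequences are RefSeq's, build GRCh38.p14, at chr5:128083516-128083765 for SLC12A2 and chr5:1112064-1112313 for SLC12A7, written 5′ to 3′ on the strand of the gene. Capitals mark every match, on either strand, to CAGAC, the core of the classical SMAD-binding element, or to GGCGC or GGCCG, GC-rich motifs that SMAD proteins also bind. Matches that overlap run together.
SLC12A2: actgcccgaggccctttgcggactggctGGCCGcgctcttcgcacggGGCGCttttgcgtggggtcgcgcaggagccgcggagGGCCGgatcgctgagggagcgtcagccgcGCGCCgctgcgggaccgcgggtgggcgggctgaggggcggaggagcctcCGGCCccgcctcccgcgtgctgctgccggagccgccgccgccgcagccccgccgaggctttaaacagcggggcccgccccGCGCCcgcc
SLC12A7: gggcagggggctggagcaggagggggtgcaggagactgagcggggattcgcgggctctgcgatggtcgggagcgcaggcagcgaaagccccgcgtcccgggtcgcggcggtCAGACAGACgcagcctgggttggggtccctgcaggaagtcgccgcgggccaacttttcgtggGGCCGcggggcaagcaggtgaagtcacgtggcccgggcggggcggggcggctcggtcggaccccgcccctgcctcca

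The SLC12A2 window held 0 matches to CAGAC, 3 to GGCGC and 3 to GGCCG. The SLC12A7 window held 2 overlapping matches to CAGAC, 0 to GGCGC and 1 to GGCCG. Among all 35116 RefSeq promoter windows of this length, 38.0% held CAGAC, 44.5% held GGCGC and 44.7% held GGCCG, so each motif is common. The SLC12A2 window was 79.6% G and C, at the 96.7th percentile of those windows, and the SLC12A7 window 74.4%, at the 89.2nd. These matches describe letters in a short window and say nothing of whether SMAD4 binds there.

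SLC12A2, the inward cotransporter NKCC1, was higher in every R272K library than in any WT library. It stood at 394, 376 and 392 CPM in R272K replicates 1 to 3 and at 222, 260 and 266 CPM in WT replicates 1 to 3. The means were 387 ± 10.2 CPM with R272K and 249 ± 23.8 CPM with WT SMAD4 (SD, n = 3 each), which is 1.55-fold, or 0.64 as a log2 fold change (SE 0.073). The groups were separated by more than the range within either, and the lowest WT value was that of replicate 1. SLC12A2 is a long transcript, at the 86.4th percentile of length, and it was lowest in WT replicate 1, where long transcripts were low. Without that library the log2 fold change was 0.56 (SE 0.040), and after removal of the length trend in every library it was 0.59 (SE 0.049).

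The outward cotransporters and SLC12A9 overlapped between the groups. SLC12A7 (KCC4) stood at 489, 500 and 544 CPM in R272K libraries and at 509, 540 and 522 CPM in WT libraries. Its groups overlapped, and the log2 fold change was -0.03 (SE 0.062), the single value below 0 among the 7. SLC12A4 (KCC1; chromosome 16, 67943474 to 67969601) stood at 38.1, 33.0 and 38.8 CPM with R272K and at 34.8, 36.4 and 33.2 CPM with WT SMAD4. These overlapped too, at a log2 fold change of 0.07 (SE 0.084).

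SLC12A9 (chromosome 7, 100826820 to 100867010) encodes a relative of these cotransporters that was first described as a partner of NKCC1. It stood at 22.9, 22.4 and 20.1 CPM in R272K libraries and at 21.0, 18.7 and 18.5 CPM in WT libraries. R272K replicate 3 lay below WT replicate 1, so the groups overlapped, and the log2 fold change was 0.16 (SE 0.095). SLC12A4 shares 4.05% of its annotated exon bases with LCAT on the same strand and SLC12A9 shares 0.78% with EPHB4 on the opposite strand (GENCODE release 29). WNK1 shares 0.54% with the opposite-strand gene AC004765.1. No source used here says whether reads were counted by strand. SLC12A2, SLC12A7, STK39 and OXSR1 share 0 exon bases with another gene in that release.

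Among the kinases, the groups were separated for OXSR1 by a narrow gap and overlapped for WNK1 and STK39. OXSR1 (OSR1; chromosome 3, 38165089 to 38255484) stood at 142, 147 and 141 CPM in R272K libraries and at 121, 135 and 131 CPM in WT libraries. The groups did not overlap, but the gap between the lowest R272K and the highest WT library was smaller than the range of the WT libraries. The log2 fold change was 0.16 (SE 0.064), and 0.11 (SE 0.047) without WT replicate 1.

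WNK1 (chromosome 12, 752579 to 911452), the chloride-sensing kinase at the head of the cascade, stood at 262, 262 and 277 CPM in R272K libraries and at 194, 270 and 267 CPM in WT libraries. Only WT replicate 1 was low, and the other WT libraries lay within the R272K range. WNK1 is among the longest transcripts measured, at the 97.8th percentile of length. Its log2 fold change of 0.13 (SE 0.102) was -0.01 (SE 0.041) without WT replicate 1 and 0.06 (SE 0.056) with the length trend removed. The counts do not separate the full-length transcript from the short kidney form, which lacks most of the kinase domain.

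STK39 (SPAK; chromosome 2, 167954020 to 168247595) stood at 40.8, 38.7 and 40.1 CPM with R272K and at 40.9, 35 and 39.7 CPM with WT SMAD4. The groups overlapped, at a log2 fold change of 0.05 (SE 0.080). OXSR1 made up 71.6, 73.4 and 71.9% of the summed STK39 and OXSR1 TPM in R272K libraries and 68.2, 73.6 and 70.5% in WT libraries, so OXSR1 was the larger of these paralogues in both groups.

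**Figure D1:**
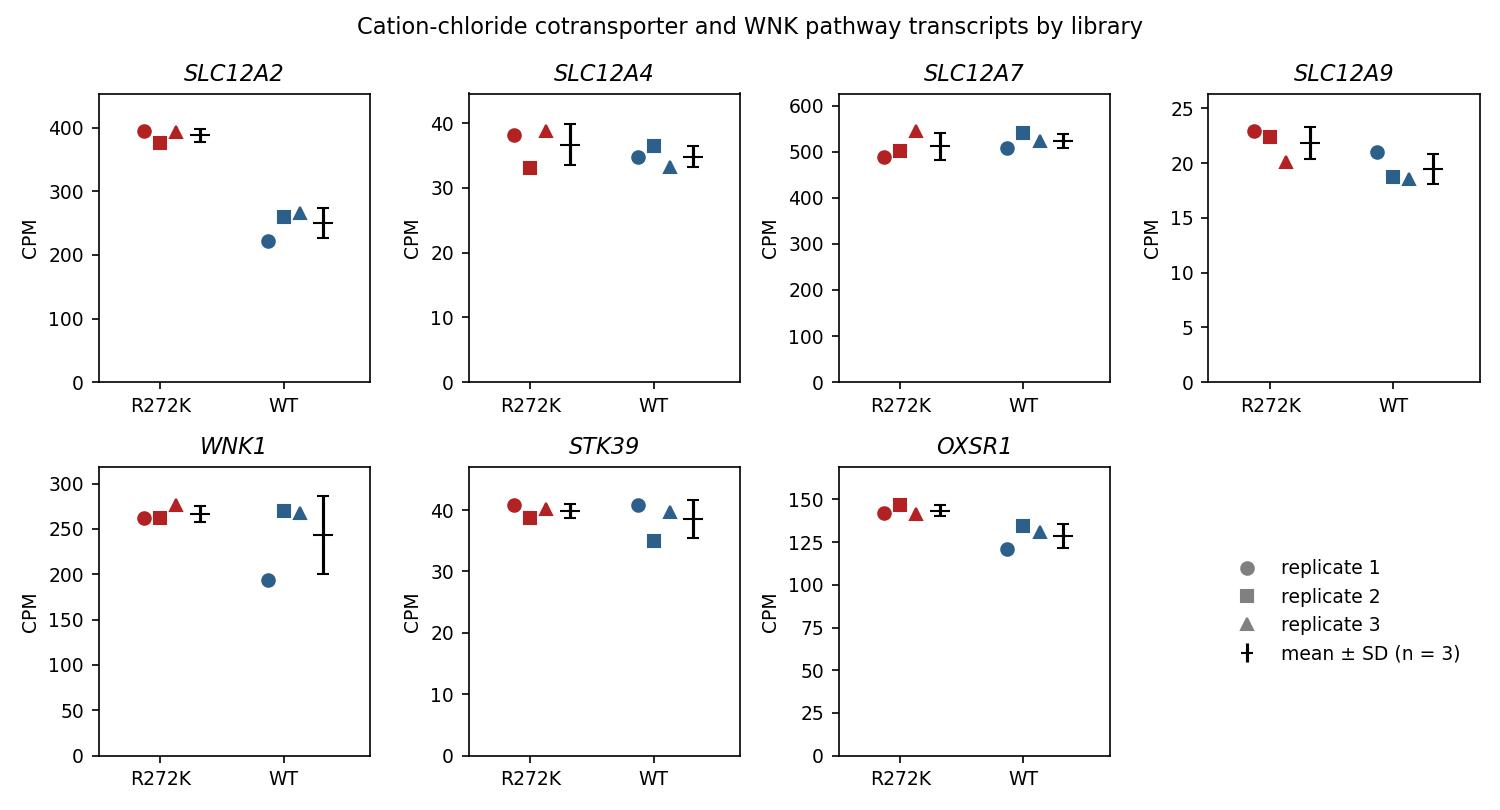
CPM of each of the 7 transcripts in the 3 R272K and 3 WT libraries, with the marker shape giving the replicate number and the bar the mean ± SD. SLC12A2 lies at 376 to 394 CPM with R272K and at 222 to 266 CPM with WT SMAD4, OXSR1 is separated by a narrow gap, the other transcripts overlap, and WNK1 is low in WT replicate 1 alone.

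Counts were tested across 15911 genes with edgeR's quasi-likelihood test, and a gene was called at a Benjamini-Hochberg adjusted p below 0.05. Of the 7 transcripts, 1 (SLC12A2) was called, higher with R272K, where 1.21% of all genes tested were called in either direction and 0.685% were called higher. The groups did not overlap for 2 of the 7, against 21.4% of all genes tested. Because the 7 were chosen with this comparison known, nothing is read from these counts. The median log2 fold change of the 7 was 0.13, beside -0.00 over all genes tested. That median is the value of WNK1, which was -0.01 without WT replicate 1 and 0.06 with the length trend removed. The median of the 7 was not recomputed under those settings. Values above 0 were found for 6 of the 7, and for 7906 of all 15911 genes tested. These are bulk libraries, in which a change in the share of cells that express a gene and a change in RNA per cell cannot be told apart.

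**Figure D2:**
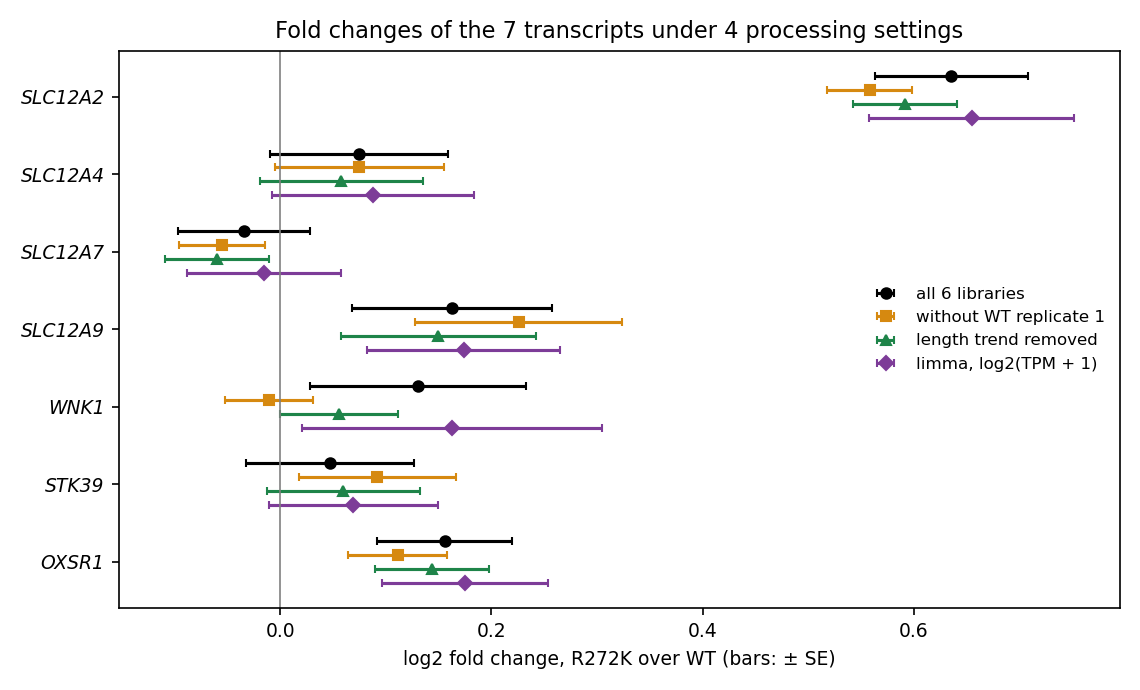
Log2 fold change of R272K over WT for each of the 7 transcripts, with SE, under 4 settings of the processing. SLC12A2 lies at 0.56 to 0.65 under these settings, while WNK1 is at 0.13 with all 6 libraries and at -0.01 without WT replicate 1.

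On the length-scaled scale (TPM, which allows levels of different genes to be compared), the order of the 7 transcripts was the same in all 6 libraries. SLC12A7 had the highest level, 304 ± 20.7 TPM with R272K and 307 ± 22.8 TPM with WT SMAD4 (SD, n = 3 each). SLC12A2 came next at 178 ± 6.13 TPM with R272K and 113 ± 16.3 TPM with WT. OXSR1 followed with 98.7, 102 and 99.9 TPM in R272K libraries and 78.3, 94.2 and 93.8 TPM in WT libraries. WNK1 came after it at 71.2 ± 3.13 TPM with R272K and 64.6 ± 14.2 TPM with WT SMAD4. STK39, SLC12A4 and SLC12A9 were lower, at 38.4 ± 1.29, 24.5 ± 2.32 and 15.4 ± 0.893 TPM with R272K and at 36.6 ± 2.71, 23.0 ± 1.43 and 13.5 ± 0.272 TPM with WT SMAD4. Neighbours in this order did not overlap within either group, though in WT libraries the lowest SLC12A2 value, 94.7 TPM, lay just above the highest OXSR1 value, 94.2 TPM.

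The balance of inward to outward cotransporter transcript was compared within each library, where no scaling between libraries enters. The outward side was the sum of SLC12A4 and SLC12A7 TPM. The ratio of SLC12A2 to this sum was 0.572, 0.539 and 0.514 in R272K libraries and 0.313, 0.345 and 0.367 in WT libraries. The groups did not overlap, with means of 0.542 ± 0.029 with R272K and 0.342 ± 0.027 with WT SMAD4 (SD, n = 3 each), 1.59 times higher with R272K and 1.52 times higher with WT replicate 1 left out. SLC12A7 alone made up 91.9 to 93.1% of the outward sum in R272K libraries and 92.9 to 93.3% in WT libraries, so this ratio mostly sets NKCC1 against KCC4. It restates the SLC12A2 difference on another scale and carries no test.

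**Figure D3:**
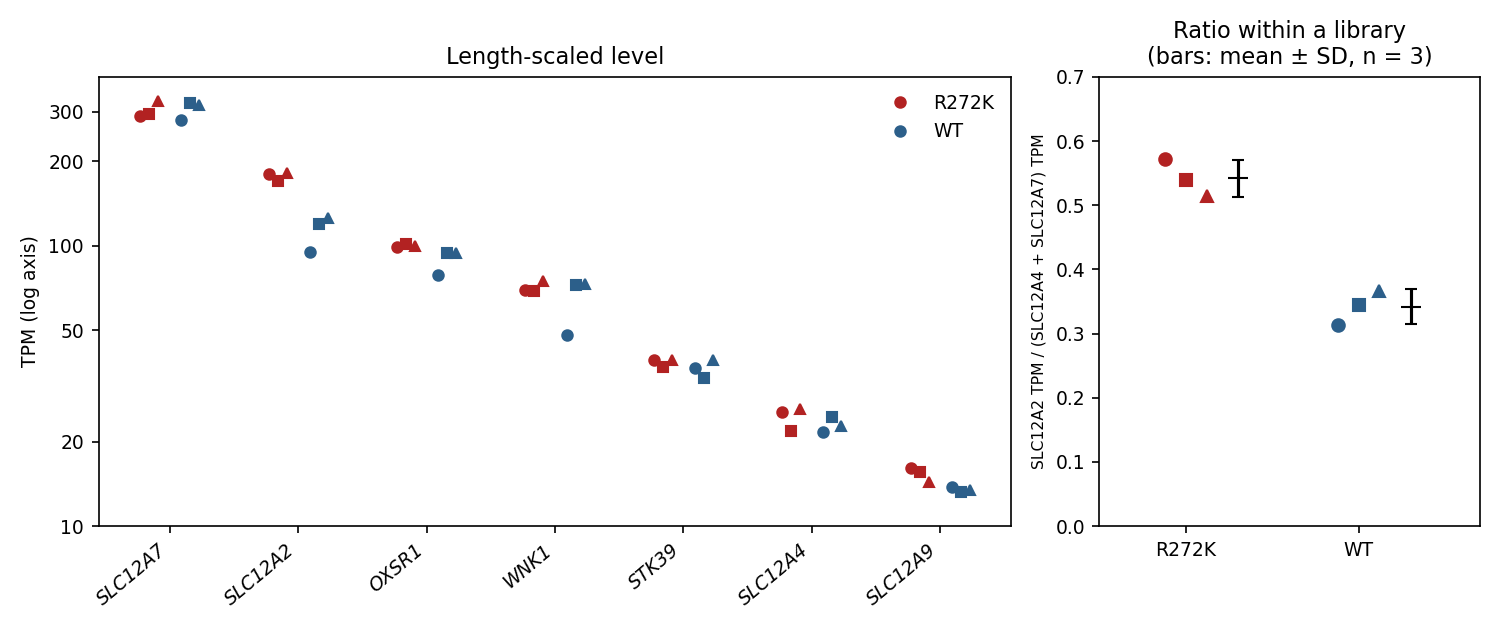
Left, TPM on a log axis of the 7 transcripts in each library, ordered by mean level, with marker shapes for replicates 1 (circle), 2 (square) and 3 (triangle). Right, the ratio of SLC12A2 TPM to the summed TPM of SLC12A4 and SLC12A7, which lies at 0.514 to 0.572 with R272K and at 0.313 to 0.367 with WT SMAD4.

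The genes whose log2 CPM ran most like SLC12A2 over the 6 libraries, by Pearson's r among 14493 genes with a mean of at least 1 CPM, were CDH1, FURIN and IQGAP3, each at r = 1.00 to 2 decimals. CDH1, which encodes E-cadherin, stood at 6.83, 6.25 and 6.32 CPM in R272K libraries and at 2.05, 2.70 and 3.01 CPM in WT libraries. FURIN, a proprotein-cleaving protease gene, stood at 93.9, 93.6 and 95.0 CPM with R272K and at 79.4, 82.9 and 83.2 CPM with WT SMAD4. Like SLC12A2, all were lowest in WT replicate 1. The genes most like WNK1, also at r = 1.00, were KMT2C, BAZ2A and ZNF148, all chromatin or transcription factor genes with long transcripts (99.5th, 93.9th and 95th percentile of length). KMT2C stood at 70.7, 71.3 and 75.2 CPM with R272K and at 46.9, 74.0 and 71.3 CPM with WT SMAD4, the same single low library as WNK1. These r values are over 6 libraries that fall into 2 groups with 1 library apart, and they are given as a description.

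The other genes of the system were read from 3 lists made by known role. The first held 24 other SLC12 cotransporters and partners of the WNK, SPAK and OSR1 cascade, of which 20 could be tested and 0 were called. Its median log2 fold change was 0.02. The kidney cotransporter genes SLC12A1 and SLC12A3, with SLC12A8 and WNK3, were too low to test. The smallest p belonged to TSC22D1, a leucine-zipper protein gene of a family linked to WNK signalling, at 80.9, 83.1 and 84.9 CPM in R272K libraries and 107, 98.8 and 94.9 CPM in WT libraries. Its groups did not overlap, at a log2 fold change of -0.27 (SE 0.068, edgeR adjusted p = 0.0804), which missed the threshold. NRBP1, a pseudokinase gene that acts with that family, came next at -0.14 (SE 0.070, edgeR adjusted p = 0.39). PPP4C, a phosphatase subunit gene with the highest TPM of the tested list, was at 0.01 (SE 0.082, edgeR adjusted p = 0.981).

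Named outside the rule, for their roles and after their values were seen, were 3 more members of this list. WNK2 stood at 12.9 ± 1.95 CPM with R272K and 11.9 ± 0.853 CPM with WT SMAD4 (edgeR adjusted p = 0.729), and WNK4 at 0.831 ± 0.459 and 0.938 ± 0.359 CPM in the same groups (SD, n = 3 each; edgeR adjusted p = 0.904), and on the TPM scale WNK2 averaged 4.88 TPM with R272K and 4.46 TPM with WT SMAD4, below WNK1. CAB39, the scaffold MO25 that activates SPAK and OSR1, was at a log2 fold change of 0.03 (SE 0.061, edgeR adjusted p = 0.887).

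The second list held 23 chloride, volume-regulated anion and potassium channels, of which 21 could be tested and 0 were called, with a median log2 fold change of 0.02. TTYH3, of the tweety family, described as anion channels, stood at 218 ± 11.7 CPM with R272K and 191 ± 8.3 CPM with WT SMAD4 (SD, n = 3 each). Its log2 fold change was 0.19 (SE 0.065, edgeR adjusted p = 0.208). LRRC8D, a subunit of the volume-regulated anion channel, was at -0.17 (SE 0.071, edgeR adjusted p = 0.303). CFTR, the apical chloride channel of ductal epithelium, was too low to test, with 1, 1 and 0 counts in the R272K libraries and 0 in each WT library.

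The third list held 18 genes of the sodium pump, pH and bicarbonate transport, water channels and osmotic response, of which 14 could be tested and 0 were called, with a median log2 fold change of 0.05. AKR1B1, which encodes the sorbitol-making aldose reductase, stood at 103, 109 and 112 CPM with R272K and at 146, 125 and 119 CPM with WT SMAD4, a log2 fold change of -0.27 (SE 0.079, edgeR adjusted p = 0.139). Its groups did not overlap, and it missed the threshold.

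Over the 3 lists together 55 of 65 genes were tested by edgeR's quasi-likelihood test and 0 were called in either direction, beside the 1.21% of all genes. At an unadjusted edgeR p under 0.05 there were 7 of the 55, beside 2270 of all 15911 genes tested. DESeq2 called 1 list gene (TSC22D1), beside 269 of 14006 genes in all, and limma-voom called 0, beside 196 of 15911. Without WT replicate 1, 5 list genes were called (among them TSC22D1 and AKR1B1 lower and TTYH3 higher), beside 875 of 16334 genes in all. Without WT replicate 3 the list count was 1 (TSC22D1), beside 276 of 16322. With the length trend removed it was 3 (among them AKR1B1 and TSC22D1), beside 620 of 15911. The groups did not overlap for 15 of the 55, where 21.4% of all genes tested did not. SLC12A2 was thus the single called transcript among the 7 and these 55, and whether it differed more than any of them was not tested.

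**Figure D4:**
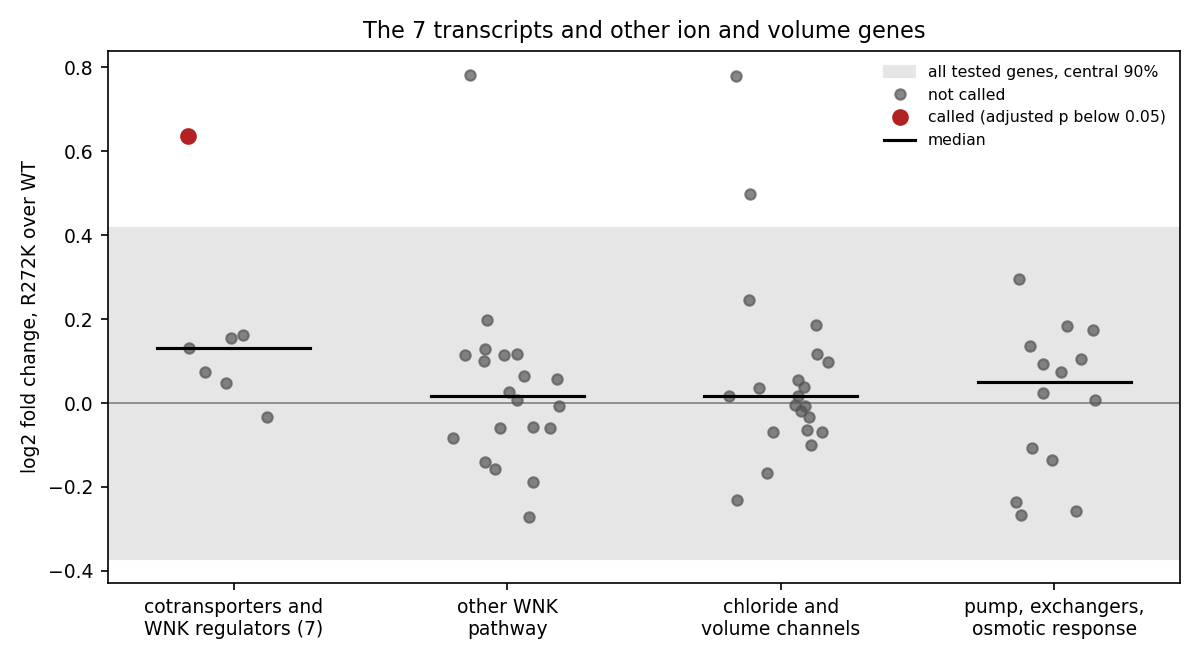
Log2 fold change of R272K over WT for the 7 transcripts and for the tested genes of the 3 lists of other ion and volume genes, with the median of each as a line and the central 90% of all tested genes, -0.37 to 0.42, in grey. SLC12A2 at 0.64 is called; the list genes above the grey band are SLC12A5, LRRC8E and ANO1, which are low transcripts and were not called.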

How the data were processed

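For the 6 libraries the deposited tables give raw counts of reads by gene symbol and TPM, both made by the authors. The submitters' processing notes name HISAT2 2.1.0, HTSeq 0.10.0, SAMtools and fastp 0.23.0, with build GRCh38. No source used here gives the settings or the annotation release. Each symbol was used once, since 453 symbols recur on several lines of the deposited tables. TPM and counts gave the same relative gene length in every library.

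Low genes were removed by edgeR's filter (minimum count 10, minimum total 15), scaled by TMM and tested, two-sided, with edgeR 4.0.16's robust quasi-likelihood test on all 6 libraries, group as the only term, Benjamini-Hochberg over 15911 genes. Fold changes are R272K over WT, and an SE is the fold change's size over the square root of F. On simulated data for this comparison (15911 genes, 200 changed) the test recovered 54% of the 1.5-fold and 84% of the 2-fold changes (50 genes for each size), and 13 of 178 calls were false. The simulation drew each count independently, with no library set apart and no length trend. These rates may therefore not hold for the real libraries.

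The 7 genes and the 3 lists were chosen with earlier results of these data known. Some list genes count in the lists' totals but are not reported by name here. The rule for named genes took the 7, SMAD4, any called gene and the 2 smallest p of each list, the highest-TPM tested gene of the first list, and 3 genes most like SLC12A2 and WNK1. Alternatives were other scalings, filters, DESeq2 1.42.0, limma 3.58.1 on voom weights or log2 TPM, a block for the replicate number, leaving out each library, and the length trend removed by a smoothed offset (span 0.5). R 4.3.3, Python 3.11.15, pandas 2.3.3, numpy 2.4.6 and matplotlib 3.10.9 were used.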

Additional observations from a re-analysis of the deposited data

How the results depend on the processing

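All 126 recomputed fold changes of the 7 transcripts lay within 1 SD between replicates of the values above. SLC12A2 ranged from 0.56, without WT replicate 1, to 0.68, without WT replicate 3, and was called in 17 of 18 alternatives; with limma on log2(TPM + 1) and no filter 0 of the 7 were called, and the cause was not tested. None of the 7 was called lower in any of the 18. WNK1 and STK39 each lay below 0 in 1 alternative, without WT replicate 1 (-0.01) and without WT replicate 2 (-0.02). Genes called numbered 193 in all. There were 474 with no filter on low counts, 620 with the length trend removed, 104 and 101 with limma on log2(TPM + 1) and log2(TPM + 0.1), and 37 with limma on log2(TPM + 1) and no filter. When 1 library was left out there were 55 to 875, the highest without WT replicate 1. List genes called numbered 0 in the main test, 3 with no filter on low counts or with the length trend removed, 1 with DESeq2, and 0 to 5 when 1 library was left out. With the replicate number as a block (replicate block) 262 genes were called and SLC12A2 stood at 0.64. Deviations from the group mean correlated at -0.06, -0.00 and -0.01 between same-numbered libraries. Between differently numbered libraries the correlations ran from -0.06 to 0.07. With 3 libraries in each group, these values cannot show whether same-numbered libraries were prepared together. The other 6 transcripts had folds of 0.977 to 1.12, smaller than any fold simulated, so the power to call such differences is not known.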
